A study of Homo sapiens with 3 samples.

Results

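The translation factors described here are the protein-coding genes named for eukaryotic initiation factors 1 to 6 (EIF1 to EIF6) and elongation factors 1 and 2 (EEF1 and EEF2). They were chosen by symbol from GENCODE release 29, without chromosome Y. The rule gave 70 genes, and 62 of them stand among the 15808 genes of the count table. The 62 fall into 11 genes of eIF2, its exchange factor eIF2B and related factors, 4 eIF2 kinases, 13 eIF3 subunits, 14 eIF4 genes, 10 genes of eIF1, eIF5 and eIF6, 5 elongation factors and 5 enzymes that modify elongation factors. The other 8, EEF1A2, EEF1AKMT4, EEF1AKMT4-ECE2, EEF1E1-BLOC1S5, EEF1G, EIF3CL, EIF4E1B and EIF4EBP3, were not analysed here.

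RNA was sequenced from OCI-Ly10 cells, an established human line of activated B cell-like diffuse large B cell lymphoma, after 6 h with MZ1, in 3 replicate libraries that form the only labelled group. MZ1 is a bifunctional molecule that links a BET bromodomain ligand to a ligand of the VHL ubiquitin ligase, so that BET proteins are degraded. Every library comes from treated cells of 1 line, and no effect of MZ1 was estimated: the other lines and the 14 day treatment that the series' text names, and untreated cells, were not analysed here. Nothing in the labels tells if separate cultures stand behind the replicates. The p-values then measure only how far these samples lie apart, and that spread may be technical.

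Replicates 1, 2 and 3 held 5474462, 1441246 and 1314812 counts, and values in sets of 3 are given in that order throughout. Levels are CPM, the count relative to the library size after TMM scaling, and 1 count was worth 0.200, 0.629 and 0.767 CPM. A count of 0 allows up to 0.600, 1.89 and 2.30 CPM, the worth of 3 counts, for counting error only. Levels of different genes are compared as CPM per kb of merged exons. All 8 B cell markers examined were at 1 CPM or more in every library, with summed levels of 6603, 2169 and 4383 CPM. Of the markers of other cell types, 2 of 6 T cell genes were in the table at a summed 12.2, 5.03 and 6.14 CPM, 3 of 4 myeloid genes at 31.0, 24.5 and 23.8 CPM, 2 of 4 epithelial genes at 46.8, 17.6 and 33.8 CPM, and 2 of 4 fibroblast genes at 5.60, 1.89 and 2.30 CPM. The highest of these markers were KRT8, with 229, 28 and 44 counts, and ITGAM, with 114, 26 and 25 counts. PDGFRB and CDH1 had 4 and 5 counts in replicate 1 and 0 in replicates 2 and 3. The part of other cell types in the results was not tested.

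Translation begins when eIF2, bound to GTP, brings the initiator tRNA to the small ribosomal subunit, with eIF1, eIF1A, eIF3 and eIF5. The eIF4F complex, made of the cap-binding eIF4E, the scaffold eIF4G and the helicase eIF4A, loads that subunit onto capped mRNA. eIF5B then joins the large subunit, and eEF1A and eEF2 carry elongation by delivering aminoacyl-tRNA and moving the ribosome. The initiation step is held back in stress by kinases that phosphorylate eIF2, and by 4E-BP proteins that sequester eIF4E when mTORC1 is inactive. Messages of many elongation factors and some initiation factors start with a run of pyrimidines, the 5′ terminal oligopyrimidine (TOP) motif, through which mTORC1 and LARP1 control their translation.

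That start motif is a feature of the factor genes which the choice by symbol did not use, and a few starts are printed because the elongation factors and the eIF3 subunits hold it most often. RefSeq lists a start (build GRCh38.p14) for 50 of the 62 genes. A pyrimidine start was taken as C at the annotated first base followed by 4 bases that are each C or T, read on the gene's own strand at that position only. Each line below is 15 bases before the start and 15 bases from it, 5′ to 3′, and capitals mark the run of C and T that opens with the first transcribed base.
EEF1A1 (chr6:73521018-73521047, minus strand): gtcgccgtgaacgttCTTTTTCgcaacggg
EEF2 (chr19:3985449-3985478, minus strand): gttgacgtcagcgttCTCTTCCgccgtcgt
EEF1B2 (chr2:206159880-206159909, plus strand): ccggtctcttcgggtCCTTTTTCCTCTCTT
EIF3D (chr22:36529152-36529181, minus strand): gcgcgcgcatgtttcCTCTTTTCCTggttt
EIF3F (chr11:7987322-7987351, plus strand): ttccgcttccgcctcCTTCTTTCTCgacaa
EIF3K (chr19:38619173-38619202, plus strand): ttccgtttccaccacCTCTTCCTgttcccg
EIF4B (chr12:53006441-53006470, plus strand): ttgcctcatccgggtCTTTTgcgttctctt
EIF2S3 (chrX:24054941-24054970, plus strand): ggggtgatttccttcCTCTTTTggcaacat
EIF2S3B (chr12:10505875-10505904, plus strand): ggggtgactttcttcCTCTTTTggcaacat
EIF2AK2 (chr2:37156966-37156995, minus strand): gtccaaggggaaaacgaaactgagaaccag
EIF5B (chr2:99337374-99337403, plus strand): gcgcactgagaactcacaccatatgtgtcc

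The EIF2AK2 and EIF5B starts are shown as examples without the run. The run in EEF1B2 reaches the end of its window and is 16 bases long. EIF2S3B, a retained copy of the eIF2 gamma subunit gene EIF2S3, carries the same 7-base run at its own annotated start on another chromosome. A pyrimidine start was found for 13 of the 50 genes (26%), where a gene counted if any of its listed starts had it. By the same rule it was found for 748 of 9945 protein-coding genes of the count table (7.52%). Of all 27305 genes with a listed start, 1404 had it (5.14%). It was present in 3 of 4 elongation factors, 4 of 8 eIF3 subunits, 4 of 10 eIF2 genes and 2 of 13 eIF4 genes. None of the 3 eIF2 kinases, 10 genes of eIF1, eIF5 and eIF6 or 2 elongation factor modifiers with a listed start had it. The members with the motif had a median level of 82.0 CPM per kb, and the 37 with another start 14.8 CPM per kb. These counts describe annotated letters and do not locate the starts used in these cells.

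The elongation factors stood highest and their modifying enzymes lowest. In bulk RNA, less of a message per cell and fewer cells that hold it cannot be told apart. All 62 genes had a count, and 57 were at 1 CPM or more in every library. The median over the 62 was 31.6, 21.3 and 25.5 CPM per kb, where the median over all genes with a count was 2.13, 2.11 and 2.33 CPM per kb. The group median was 759.6, 143 and 363 CPM per kb for the elongation factors and 89.2, 48.2 and 74.7 CPM per kb for the eIF3 subunits. The eIF4 genes had a median of 23.2, 31.6 and 25.5 CPM per kb, and eIF1, eIF5 and eIF6 had 38.7, 18.5 and 21.6 CPM per kb. These 2 groups overlapped over the libraries. The eIF2 genes followed with a median of 12.9, 11.98 and 8.37 CPM per kb and the eIF2 kinases with 4.82, 13.2 and 11.2 CPM per kb, above eIF2 in replicates 2 and 3. The modifying enzymes had a median of 2.11, 1.41 and 0.736 CPM per kb.

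**Figure D1:**
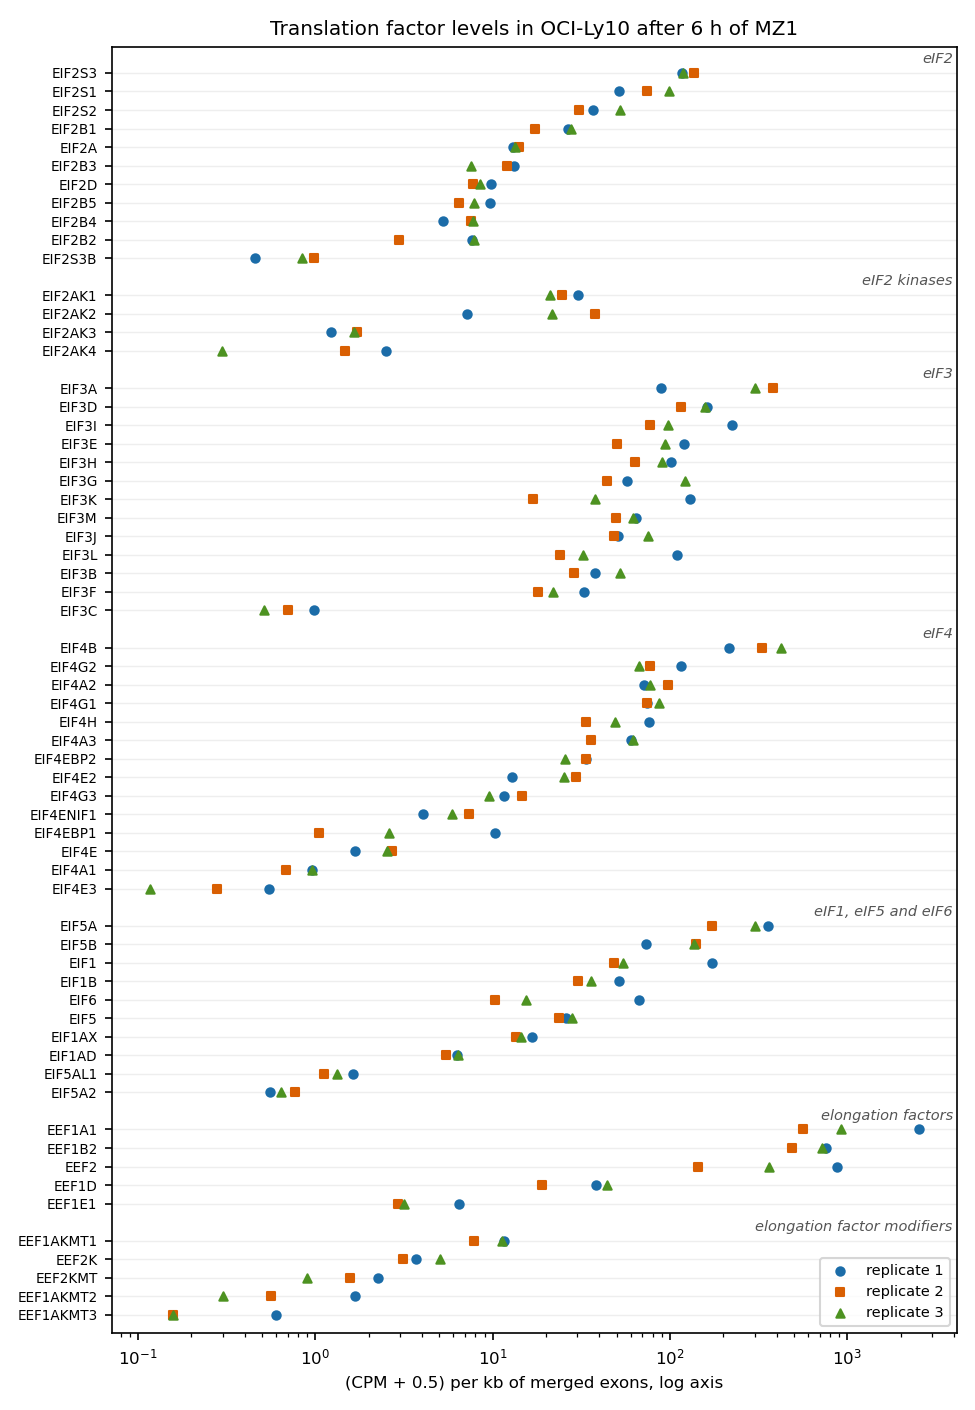
Level of each of the 62 translation factor genes, as (CPM + 0.5) per kb of merged exons on a log axis, with 1 point per library and genes sorted by mean level within each group. EEF1A1 lies farthest right in replicate 1, EIF3C lies far left of the other eIF3 subunits, and EIF4A1 lies far left of EIF4A2 and EIF4A3.

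Differences between group medians were described on the scale of log2((CPM + 0.5) per kb) and carry no test, since the groups are lists of genes. The eIF3 median exceeded the eIF2 median by 2.64 ± 0.59 (SD, n = 3 libraries). The eIF4 median was below the eIF3 median, at a difference of -1.42 ± 0.75. The eIF2 median exceeded that of its kinases by 1.01 ± 0.56. Each of these had 1 sign in all 3 libraries. The last sign holds for the log2 scale only: the median of 4 kinases is the midpoint of a high and a low gene, and that midpoint is higher on the linear scale, where the kinases lay above eIF2 in replicates 2 and 3. The elongation factor median exceeded the eIF3 median by 2.31 ± 0.76, but the difference became -0.13 when genes with exons opposite another gene were left out, which kept EEF2 and EEF1E1, and -1.10 without genes that have a near-identical copy in the table. In every library EEF1A1, EEF1B2 and EEF2 lay above the eIF3 median and EEF1D and EEF1E1 below it.

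EEF1A1, which delivers aminoacyl-tRNA to the ribosome, was the most abundant translation factor. It lies at chr6:73515750-73523797 (GENCODE coordinates, GRCh38) on the minus strand. It had 75169, 5296 and 7156 counts, or 15029, 3329 and 5489 CPM. Replicate 1 was 4.51-fold above replicate 2, the lowest library. The gene alone took 1.37% of all counts in replicate 1 (exact 95% binomial interval 1.36% to 1.38%), 0.367% (0.358% to 0.377%) in replicate 2 and 0.544% (0.532% to 0.557%) in replicate 3. Such intervals, here and for the kinases below, cover counting error only. All factor genes together took 3.15%, 2.12% and 2.45% of the counts, and without EEF1A1 they took 1.77%, 1.75% and 1.91%. By this share of raw counts, replicate 3 was the highest library without EEF1A1. The share carries no TMM scaling, under which the order of libraries can differ. On the per-length scale EEF1A1 had 2527, 559.6 and 922.9 CPM per kb. Its 8 near-identical copies in the table held 318, 53 and 63 counts in all.

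EEF2, the translocation factor at chr19:3976056-3985469 on the minus strand, had 870.1, 143 and 363 CPM per kb. In CPM these are 3504, 576 and 1464, a 6.08-fold range in the same order of libraries as EEF1A1. EEF1B2, a nucleotide exchange subunit that recharges eEF1A, was closer between libraries at 759.6, 488 and 718 CPM per kb. EEF1D, the delta subunit of the same exchange complex, had 38.4, 18.9 and 44.4 CPM per kb. EEF1E1, also known as the multisynthetase complex component AIMP3, was lowest of the group with 6.26, 2.68 and 2.91 CPM per kb. With TMM scaling replicate 2 was the lowest library for all 5 genes and replicate 1 the highest for all except EEF1D. With libraries scaled by column totals, replicate 3 was lowest for EEF1E1 and highest for EEF1B2. With a scaling by GC content, replicate 1 was lowest for EEF1D and replicate 3 highest for EEF1B2.

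Among the enzymes that modify elongation factors, EEF1AKMT1, a lysine methyltransferase of eEF1A, was highest at 11.2, 7.51 and 10.9 CPM per kb. EEF2K, the kinase that inactivates eEF2, had 3.64, 3.06 and 4.97 CPM per kb, a difference between libraries that was called with the scaling by GC content only. EEF2KMT, the eEF2 lysine methyltransferase, had 2.11, 1.41 and 0.736 CPM per kb, which is also the group median. Near-identical copies cover 75.6% of its principal transcript, and 38.3% of that transcript lies opposite another gene. In EEF1AKMT2 43.0% of the principal transcript lies under another gene of the same strand. The part of these copies and overlaps in the low counts was not tested. EEF1AKMT2 had 33, 3 and 1 counts, and EEF1AKMT3 had 7, 0 and 0 counts. Both had at most 3 counts in the 2 shallower libraries, which limits what a difference from replicate 1 can show. The log2 ratio of EEF2 to EEF2K, per kb, was 7.88, 5.52 and 6.17, a mean of 6.52 ± 1.22 (SD), with EEF2 higher in 3 of 3 libraries.

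Of the 13 eIF3 subunits of the table, EIF3A was highest and EIF3C lowest. The other 11 subunits had means between 24.2 and 145 CPM per kb, while EIF3A had 257 ± 151 and EIF3C 0.662 ± 0.240 CPM per kb (SD, n = 3). EIF3A, the largest core subunit, at chr10:119033670-119080823 on the minus strand, had 89.2, 381 and 302 CPM per kb. Replicate 1 was its lowest library, and the libraries differed 4.28-fold. No other varying eIF3 subunit was lowest in replicate 1 with TMM scaling, but EIF3J was with column totals, and EIF3B and EIF3G were with a scaling by GC content. Within the complex it equalled the median of the 13 subunits in replicate 1 and lay 2.98 and 2.01 log2 units above it in replicates 2 and 3.

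The other core subunits were less spread. EIF3B, which anchors the module bound near the mRNA entry channel, had 37.9, 28.7 and 52.1 CPM per kb. EIF3G, an RNA-binding subunit of that module, had 56.9, 44.2 and 122 CPM per kb. EIF3I, its beta-propeller subunit, had 223, 76.9 and 96.9 CPM per kb. These 3 partners did not share an order of libraries, with replicate 3 highest for EIF3B and EIF3G and replicate 1 for EIF3I. EIF3J, a loosely bound subunit, had 50.7, 48.2 and 74.7 CPM per kb.

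EIF3D, the subunit with a cap-binding activity of its own, had 162, 115 and 158 CPM per kb. EIF3E, a PCI-domain subunit, had 120.0, 50.03 and 94.1 CPM per kb. EIF3F, an MPN-domain subunit, had 32.9, 17.99 and 21.7 CPM per kb. EIF3H, the other MPN-domain subunit, had 101.2, 63.7 and 90.4 CPM per kb, and EIF3M, a PCI-domain partner, had 64.5, 49.3 and 61.9 CPM per kb. In these 5 genes replicate 1 was highest and replicate 2 lowest, except that replicate 3 was highest for EIF3D and EIF3M with libraries scaled by column totals and for EIF3D with the scaling by GC content. EIF3H kept within 0.11 log2 units (SD) of a constant distance from the complex median and EIF3E and EIF3D within 0.19 and 0.20, the 3 smallest spreads among the subunits.

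EIF3K and EIF3L, which bind each other at the edge of the complex, moved away from the rest. EIF3K had 130.2, 16.6 and 37.6 CPM per kb, a 7.83-fold range. EIF3L had 109, 23.8 and 32.3 CPM per kb, a 4.58-fold range. Both were above the complex median in replicate 1, by 0.55 and 0.29 log2 units, and below it in the other libraries, by 1.54 and 1.02 units in replicate 2 and by 0.99 and 1.21 units in replicate 3. EIF3K is one of the genes with a printed pyrimidine start. In EIF3L 44.8% of the principal transcript lies under another gene of the same strand, AL022311.1, which had 3.40, 7.54 and 5.37 CPM.

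EIF3C, at chr16:28688558-28735730 on the plus strand, had only 32, 7 and 4 counts although it codes for a core subunit. It lay 6.60, 6.26 and 7.41 log2 units below the complex median. A stretch of 98.0% of its principal transcript has a copy of 99.9% identity in EIF3CL, which was not analysed here. How reads that fit both genes were counted is not stated. The part of that copy in the low count was not tested.

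**Figure D2:**
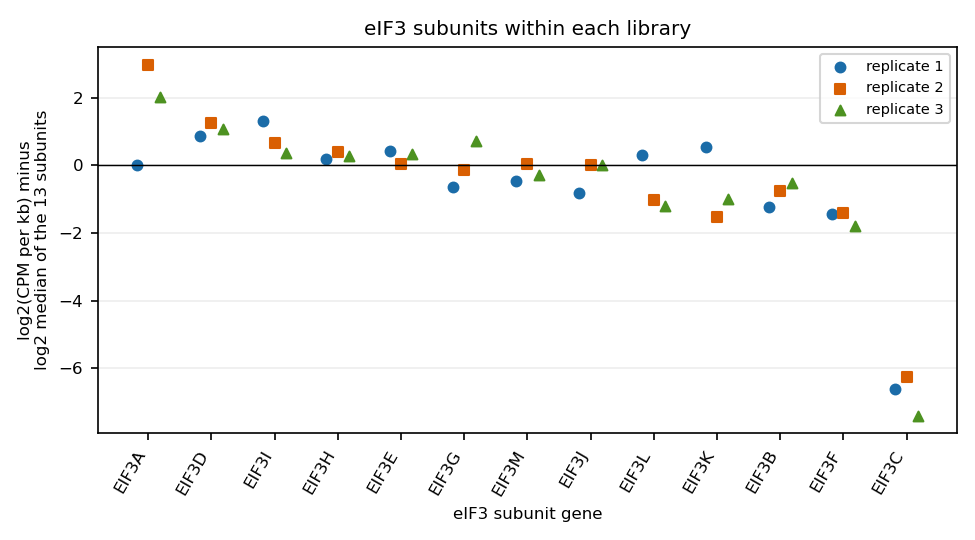
Level of each eIF3 subunit gene relative to the median of the 13 subunits in the same library, in log2 units of CPM per kb. EIF3A lies on the median in replicate 1 and 2.98 and 2.01 units above it in replicates 2 and 3, and EIF3C lies more than 6 units below in every library.

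The 3 main eIF2 subunit genes were above the eIF2B genes that recharge them. EIF2S3, the gamma subunit that holds GTP and the initiator tRNA, had 117, 136 and 118 CPM per kb, a 1.16-fold range. EIF2S1, the alpha subunit that the stress kinases phosphorylate, had 51.3, 74.6 and 99.0 CPM per kb. EIF2S2, the beta subunit, had 36.8, 30.5 and 52.0 CPM per kb. The order of the 3 subunits was the same in every library, with gamma well above alpha in replicate 1 and close to it in replicate 3. The copy EIF2S3B had 3, 3 and 2 counts, at or below the level that a count of 0 allows, and 99.1% of its transcript matches EIF2S3.

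The median of the 5 eIF2B subunits was 9.54, 7.41 and 7.75 CPM per kb, against 51.3, 74.6 and 99.0 CPM per kb for the 3 eIF2 subunits. EIF2B1, of the regulatory alpha subunit, was highest with 26.4, 17.2 and 27.5 CPM per kb. EIF2B3 (gamma) had 13.01, 11.98 and 7.42 CPM per kb. EIF2B5, the catalytic epsilon subunit, had 9.54, 6.38 and 7.79 CPM per kb. EIF2B4 (delta) had 5.17, 7.41 and 7.61 CPM per kb and EIF2B2 (beta) had 7.53, 2.89 and 7.75 CPM per kb. These 5 genes shared no order of libraries, and EIF2B3 and EIF2B5 were no longer called as differing between libraries once GC content was taken into account, with adjusted p = 0.0534 and 0.0752 in the chi-square test. EIF2A and EIF2D, which can deliver initiator tRNA without eIF2, had 12.9, 14.0 and 13.2 and 9.67, 7.64 and 8.37 CPM per kb, and neither passed the test between libraries. With the GC scaling EIF2D was called (adjusted p = 0.0443, chi-square test).

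The 4 eIF2 kinases differed in level and in how they varied. EIF2AK1, the heme-regulated kinase HRI, had 30.4, 24.7 and 20.9 CPM per kb. EIF2AK2, the double-stranded RNA-activated kinase PKR at chr2:37099210-37157065 on the minus strand, had 7.16, 37.9 and 21.5 CPM per kb, a 5.29-fold range. EIF2AK3, the endoplasmic reticulum kinase PERK, had 1.14, 1.62 and 1.55 CPM per kb. EIF2AK4, the amino acid sensor GCN2, had 148, 27 and 4 counts, or 2.47, 1.42 and 0.257 CPM per kb. So HRI was the highest kinase in replicate 1 and PKR in replicate 2, and in replicate 3 both were close to each other. Replicate 1 was the highest of the libraries for GCN2 and the lowest for PKR. Counts of the 4 kinases summed to 0.0257% of replicate 1 (exact 95% interval 0.0244% to 0.0271%), 0.0629% (0.0589% to 0.0672%) of replicate 2 and 0.0355% (0.0324% to 0.0389%) of replicate 3. The log2 ratio per kb was 4.61 ± 1.35 for EIF2AK1 to EIF2AK4 and 3.58 ± 0.97 for EIF2AK2 to EIF2AK3, each above 0 in 3 of 3 libraries.

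Genes of the integrated stress response, which follow eIF2 phosphorylation, were measured in the same libraries. Of 15 listed, 14 were in the table and 11 were at 1 CPM or more in all libraries. Of 10 tested, 7 differed between libraries, 3 with replicate 1 highest and 3 with replicate 1 lowest, where of all genes tested 67.2% differed, 32.1% with replicate 1 highest and 23.1% with replicate 1 lowest. ATF4, the transcription factor whose message is translated when eIF2 is phosphorylated, had 180.3, 118 and 186 CPM per kb. PPP1R15A, which directs the phosphatase that reverses the phosphorylation, had 72.7, 144 and 145 CPM per kb. PSAT1, an ATF4 target of serine synthesis, had 31.3, 11.8 and 4.91 CPM per kb. VLDLR, a lipoprotein receptor, was lowest of the list per kb, with 5, 0 and 1 counts.

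Of the eIF4 genes, EIF4B was the highest. EIF4B, a cofactor of the eIF4A helicase at chr12:53006158-53042209 on the plus strand, had 215, 332 and 420.5 CPM per kb, lowest in replicate 1 by 1.96-fold. EIF4H, the related cofactor, had 75.6, 33.7 and 49.0 CPM per kb and was highest in replicate 1. Replicate 1 was thus at opposite ends for the 2 cofactors of the same helicase. EIF4B and EEF1A1 both have the pyrimidine start and are known as TOP messages, and replicate 1 was at opposite ends for these 2 as well. With TMM scaling, of 8 factor genes in a list of known TOP messages, EIF4B alone was called with replicate 1 lowest, and 6 with it highest. Of all genes tested, 23.1% were called with replicate 1 lowest and 32.1% with it highest. With column totals 1 of the 8 was called lowest and 5 highest, beside 29.9% and 25.2% of all genes. With the scaling by GC content EEF1D was also lowest in replicate 1, and EEF1B2 was highest in replicate 3. EIF4B exons also lie opposite 733 bases of AC068888.1, which had 15, 671 and 795 counts, and the part of this overlap was not tested.

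EIF4G1, the main scaffold, had 74.7, 73.8 and 86.7 CPM per kb and EIF4G2, a scaffold without the eIF4E-binding site, had 116, 77.6 and 67.3 CPM per kb. Their log2 ratio per kb was -0.11 ± 0.50, with EIF4G1 lower in 2 of 3 libraries (exact sign-flip permutation p = 0.75, two-sided). The ratio depended on the length used: it was 0.076 by the longest transcript and -1.67 by the principal transcript, and no order of the pair was established. EIF4G3 had 11.5, 14.7 and 9.43 CPM per kb, and EIF4G1 exceeded it by 2.74 ± 0.43 log2 units per kb in 3 of 3 libraries.

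Among the helicase genes EIF4A1 stood far below its relatives. EIF4A2 had 70.9, 97.7 and 77.5 CPM per kb. EIF4A3, the helicase of the exon junction complex, had 60.6, 35.7 and 61.6 CPM per kb. EIF4A1, at chr17:7572706-7579005 on the plus strand, had 23, 5 and 6 counts, or 0.865, 0.591 and 0.866 CPM per kb. The log2 ratio per kb was -6.57 ± 0.51 to EIF4A2 and -5.90 ± 0.17 to EIF4A3. All of the principal transcript of EIF4A1 (100%) lies under other genes of the same strand, AC016876.2, which was not analysed here, and the read-through gene SENP3-EIF4A1, which had 5, 2 and 3 counts. How reads that lie in more than 1 gene were counted is not stated, and the part of this overlap in the low count was not tested.

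EIF4E, the cap-binding protein, had 1.63, 2.68 and 2.51 CPM per kb, with 115, 60 and 46 counts. EIF4E2, a homologue that represses initiation, had 12.9, 29.5 and 25.3 CPM per kb, and EIF4E was lower than it by a log2 ratio per kb of -3.24 ± 0.26 in 3 of 3 libraries. EIF4E3 had 27, 4 and 1 counts and differed between libraries with the GC scaling only. The 14067 bases of merged exons of EIF4E, the longest of the factor genes, enter that ratio, which was -5.11 by principal transcripts. Of the 4E-BP repressors, EIF4EBP2 had 33.5, 33.7 and 25.6 CPM per kb. EIF4EBP1 had 53, 1 and 3 counts. EIF4EBP2 was higher than EIF4EBP1 in 3 of 3 libraries, by 3.33 ± 1.65 log2 units per kb. The ratio of EIF4E to EIF4EBP1 changed sign between libraries, with -2.63, 1.37 and -0.04 log2 units, and its mean of -0.43 became 0.69 without replicate 1. In replicates 2 and 3 it rests on 1 and 3 counts of EIF4EBP1, at or below the level that a count of 0 allows. That limits what the change of sign can show. EIF4ENIF1, the transporter that takes eIF4E to the nucleus and to P-bodies, had 3.94, 7.23 and 5.80 CPM per kb.

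In all, 12 pairs of factors with a shared role were compared, and no pair could pass a threshold of 0.05. With 3 libraries the smallest p of the exact two-sided sign-flip permutation test is 0.25, and the Benjamini-Hochberg adjusted p over the 12 pairs was 0.3 for the 10 pairs with 1 sign in 3 of 3 libraries and 0.75 for the other 2.

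Genes that act on eIF4F were next described from lists of known roles. All 14 genes of mTORC1 and MNK signalling were in the table at 1 CPM or more in every library, and 11 of 14 tested differed between libraries, 5 highest and 5 lowest in replicate 1. The shares of all genes tested were 67.2% differing, 32.1% highest and 23.1% lowest in replicate 1. LARP1, the repressor of TOP messages, had 33.5, 77.1 and 70.6 CPM per kb. PDCD4, an inhibitor of eIF4A, had 39.7, 77.7 and 44.7 CPM per kb. MKNK2, a kinase that phosphorylates eIF4E, had 42.5, 17.5 and 51.6 CPM per kb, and TSC2, a brake on mTORC1, was lowest of the list with 1.45, 0.576 and 0.586 CPM per kb. Of the 10 partners at the cap, the poly(A) tail and in scanning, 10 of 10 differed between libraries, 7 of them lowest in replicate 1, beside the same 67.2% and 23.1% of all genes. PABPC1, the poly(A)-binding protein, had 1274, 666 and 685 CPM per kb, PABPC4 had 133, 97.95 and 96.4 CPM per kb, NCBP2 of the nuclear cap-binding complex had 27.2, 37.6 and 52.4 CPM per kb, and CYFIP1, an eIF4E-binding protein, was lowest with 0.326, 1.15 and 2.06 CPM per kb.

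EIF5A, the hypusine-bearing factor that relieves stalled ribosomes, was the highest of the remaining initiation factor genes, with 355, 171 and 300.3 CPM per kb. Its paralog EIF5A2 had 13, 6 and 4 counts, and the log2 ratio of EIF5A to EIF5A2 per kb was 8.67 ± 0.78. The retained copy EIF5AL1 had 29, 6 and 6 counts. EIF5AL1 is a near-identical copy of 76.6% of the EIF5A principal transcript, with a best identity of 97.4%. How reads that fit both were counted is not stated, and the part of this copy in the counts was not tested. EIF5AL1 was not called between libraries, and EIF5A2 was too low to be tested.

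EIF1, which guards start codon choice, had 172, 48.4 and 54.4 CPM per kb, a 3.56-fold range. EIF1B had 51.4, 29.9 and 35.7 CPM per kb and was below EIF1 in 3 of 3 libraries, by 1.01 ± 0.63 log2 units per kb. EIF1AX, one of the eIF1A genes, had 16.5, 13.5 and 14.4 CPM per kb. EIF1AD, an eIF1A domain protein, had 6.13, 5.29 and 6.23 CPM per kb, and EIF5, the GTPase activator of eIF2, had 26.0, 23.6 and 28.1 CPM per kb. The last 3 did not pass the test between libraries, with adjusted p of 0.201, 0.798 and 0.111 in the chi-square test. With the GC scaling EIF1AX and EIF5 were called, with adjusted p of 0.0022 and 0.000928 in the same test.

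EIF5B and EIF6 act on the large ribosomal subunit. EIF5B, the GTPase that joins it, had 72.8, 140.2 and 137 CPM per kb, lowest in replicate 1. EIF6, which keeps it from joining early, had 66.2, 10.0 and 15.1 CPM per kb, highest in replicate 1 by 6.61-fold over replicate 2. The 2 were thus near each other in replicate 1 and far apart in replicates 2 and 3. Of 9 genes of termination, recycling and hypusine synthesis, 8 were tested and 7 differed between libraries, 5 of them highest in replicate 1, where 67.2% of all genes tested differed and 32.1% were highest in replicate 1. ETF1, the release factor, had 83.7, 52.0 and 56.0 CPM per kb, ABCE1, the recycling ATPase, had 43.6, 46.4 and 35.6 CPM per kb, GSPT1, the release factor GTPase, had 29.6, 17.2 and 22.6 CPM per kb, and DOHH, which completes hypusine, had 11, 1 and 4 counts.

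The factor genes were then counted by a Poisson chi-square test of each gene's counts over the libraries, with Benjamini-Hochberg adjustment over all 10016 genes of a mean count of at least 10 and a threshold of 0.05. It compares libraries and no conditions. Of the 62 factor genes 59 were tested, EIF2S3B, EIF5A2 and EEF1AKMT3 being too low, and 46 of the 59 (78.0%) differed between libraries, where 67.2% of all genes tested did. Replicate 1 was the highest library for 24 of the 46, which is 40.7% of the 59 tested against 32.1% of all genes tested. It was the lowest for 11, or 18.6% against 23.1% of all. By group, 12 of 13 eIF3 subunits, 12 of 14 eIF4 genes, 8 of 10 eIF2 genes, 3 of 4 kinases, 5 of 9 genes of eIF1, eIF5 and eIF6, 5 of 5 elongation factors and 1 of 4 modifiers were called. The 13 tested but not called were EIF2A, EIF2D, EIF2AK3, EIF3C, EIF4A1, EIF4E3, EIF1AD, EIF1AX, EIF5, EIF5AL1, EEF1AKMT1, EEF2K and EEF2KMT. Among the called genes replicate 1 was highest for 8 eIF3 subunits and lowest for 1, and highest for 3 eIF4 genes and lowest for 5. Of the 8 factor genes in a list of known TOP messages, 8 were called and 6 were highest in replicate 1. Without replicate 1, which was the deepest library, 30 of 51 tested were called (58.8%), where 33.8% of all genes were. At equal spread this test calls genes of more counts more often, and the factor genes stood above the median level of all genes. Their median range from highest to lowest library was 1.72-fold, against 1.96-fold over all genes tested. Both medians are over genes with more than 3 counts in every library. The shares called thus do not measure how large the differences were.

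The direction of these differences rested in part on how libraries were scaled. The median difference of replicate 2 from replicate 1 was -0.49 log2 units over the 59 factor genes and -0.17 over all genes tested, and with column totals in place of TMM factors these became -0.24 and 0.09. The median difference of replicate 3 from replicate 1 was -0.08 over the factor genes and -0.11 over all genes, and with column totals 0.04 and 0.00. With column totals the split of called genes was 18 highest and 15 lowest in replicate 1, in place of 24 and 11. These are 30.5% and 25.4% of the 59 factor genes, where the shares of all genes tested were then 25.2% and 29.9%. For the eIF3 subunits the split was 6 and 2 in place of 8 and 1. The sign of the difference from replicate 1 changed under column totals for 7 genes in replicate 2 and 4 genes in replicate 3, among them EIF4G1, EIF2S2 and EEF1B2.

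**Figure D3:**
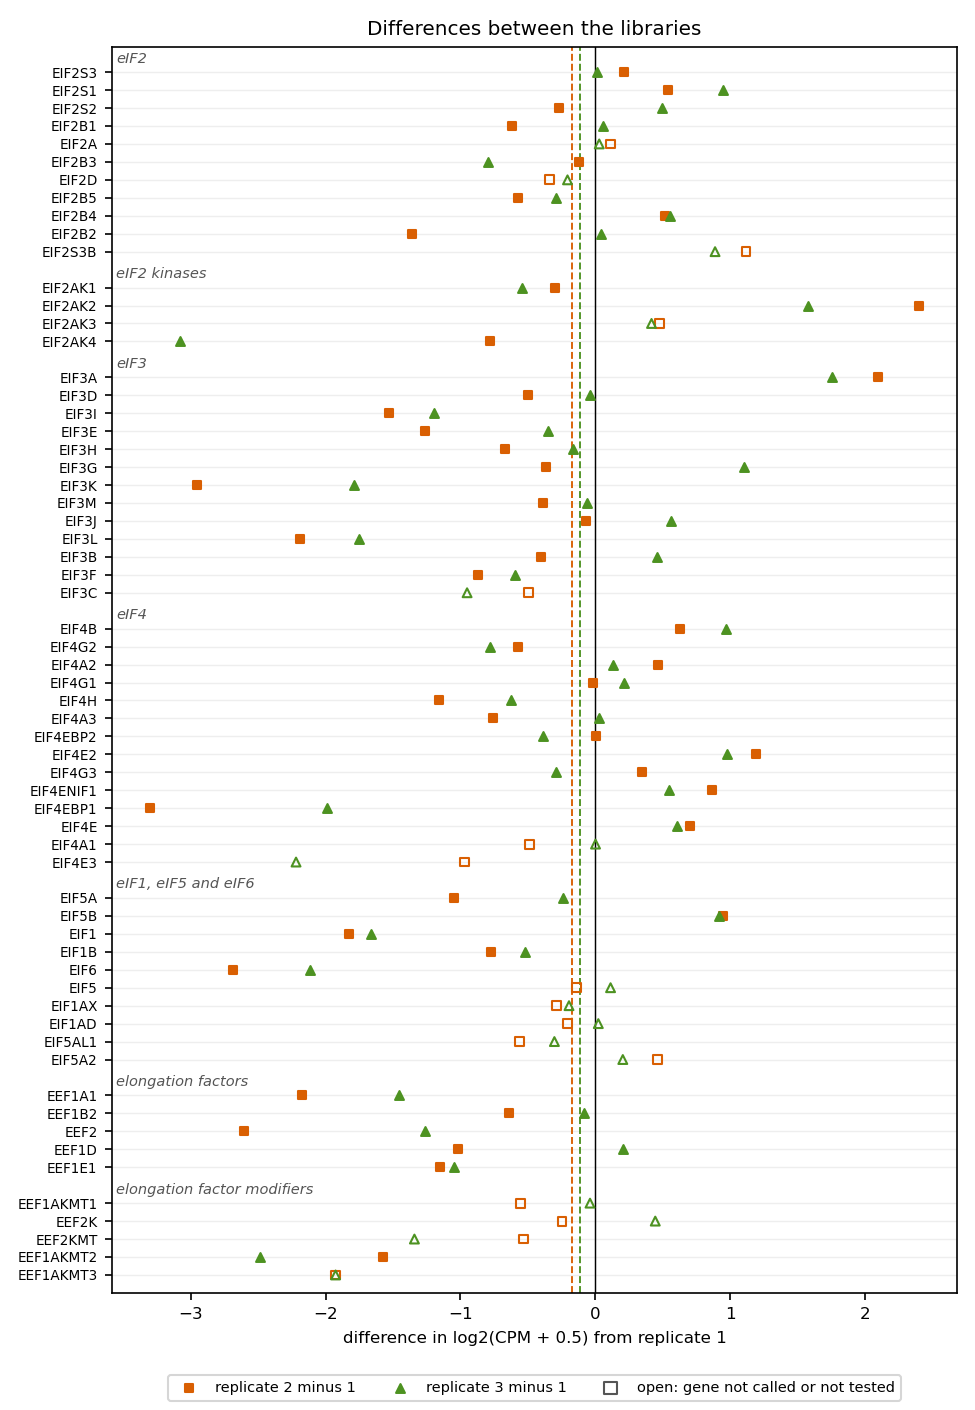
Difference in log2(CPM + 0.5) of replicates 2 and 3 from replicate 1 for each factor gene, with filled points for genes called as differing between libraries and dashed lines at the medians of all genes tested, -0.17 and -0.11. EIF2AK2 and EIF3A lie right of 0 in both libraries, and EIF3K, EEF2, EIF6 and EIF4EBP1 lie left of 0 in both.

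Base composition moved with the differences between libraries. Across the 59 factor genes, which are not independent replicates, the difference of replicate 2 from replicate 1 had a Spearman rho of -0.28 with GC content and 0.39 with exon length. Across 9979 genes tested the same values were -0.45 and 0.22. The difference of replicate 3 from replicate 1 had a rho of -0.12 with GC content over the factor genes and -0.15 over all. When expected counts were also scaled by the median of genes in the same of 10 bins of GC content, 46 factor genes were called, 41 of them among the 46 called before, and 61.1% of all genes tested were called. The 5 gained were EIF2D, EIF4E3, EIF1AX, EIF5 and EEF2K, and the 5 lost were EIF2S3, EIF2B3, EIF2B5, EIF4E and EIF5A. EEF2, with 59.9% GC, went from -2.60 to -1.62 log2 units in replicate 2 against replicate 1, and EIF3K, with 52.8%, from -2.96 to -2.63. EIF2AK2, with 38.7%, went from 2.40 to 2.12, and EIF3A, with 43.2%, from 2.10 to 2.001. EEF1D, with 60.6%, changed sign from -1.02 to 0.56 and EIF3G, with 60.3%, from -0.36 to 1.21. EIF5A, with 57.3%, went from -1.05 to -0.07 and was no longer called. In all, 9 genes changed sign in replicate 2 and 5 in replicate 3.

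**Figure D4:**
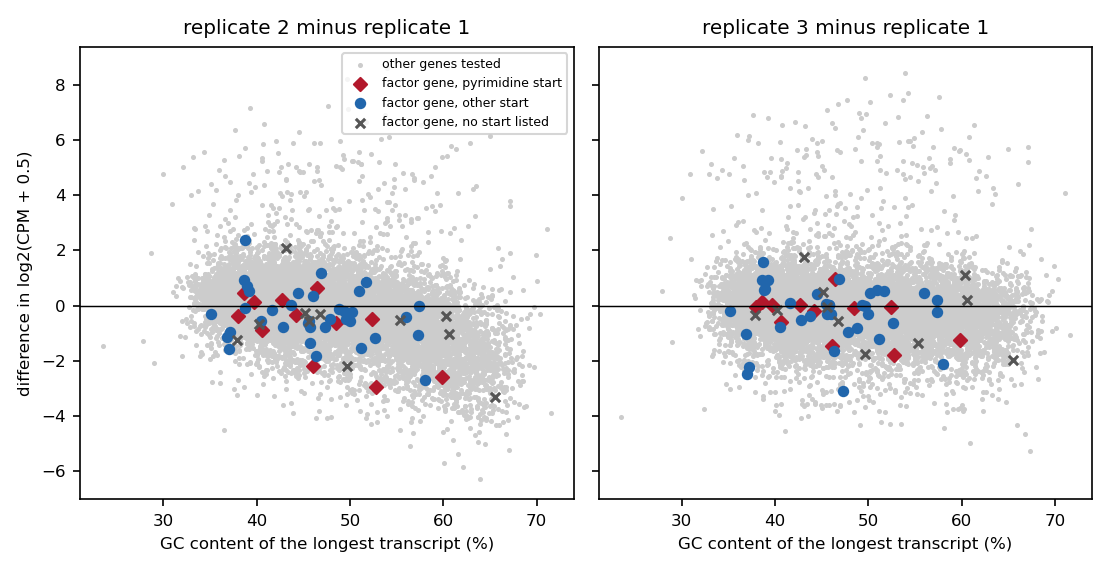
Difference in log2(CPM + 0.5) of replicate 2 (left) and replicate 3 (right) from replicate 1 against the GC content of the longest transcript, for all genes tested (grey) and the 59 tested factor genes, marked by whether the annotated start opens with a pyrimidine run. Grey points bend downward at high GC in replicate 2, with a rho of -0.45, and less so in replicate 3, with -0.15, and the marked genes with and without the run lie among each other.

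A group of 16 factor genes differed between libraries in the full test, with the GC scaling and with each library left out in turn, which is 27.1% of the 59 tested, where 11.5% of all genes tested met the same rule. These shares, too, depend on the counts of a gene as well as on its spread. The 16 were EIF2S1, the kinases EIF2AK2 and EIF2AK4, the eIF3 subunits EIF3A, EIF3B, EIF3E, EIF3G, EIF3H and EIF3K, the eIF4 genes EIF4B, EIF4E2, EIF4G2 and EIF4H, and the elongation factors EEF1A1, EEF1D and EEF2. Replicate 1 was lowest for EIF2S1, EIF2AK2, EIF3A, EIF4E2 and EIF4B. It was highest for EIF2AK4, EIF3E, EIF3H, EIF3K, EIF4H, EIF4G2, EEF1A1 and EEF2. For EIF3B, EIF3G and EEF1D replicate 2 was lowest with TMM scaling, but replicate 1 was lowest with the GC scaling. A call in every setting was thus not always a fixed order of libraries. Over the 59 genes the levels in log2 CPM of replicates 2 and 3 had a Pearson r of 0.97, and those of replicate 1 had 0.92 with replicate 2 and 0.94 with replicate 3. Replicates 2 and 3 were both below replicate 1 for 31 of the 59 genes (52.5%) and both above it for 13 (22.03%), where the shares of all genes tested were 43.8% and 32.1%.

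Some neighbouring genes on the opposite strand were far lower in replicate 1 than in the others. Neither labels nor headers state if strand entered the counting, and reads of a gene and its opposite partner could then not be told apart. Exons of 34 factor genes lie opposite exons of another gene, for 29 of them a gene in the table. These had 36 partners in the table. Of the 25 partners with a mean count of at least 10, 14 were lowest in replicate 1 (56%), where 32.1% of all genes tested were. The 9 partners annotated as antisense RNA summed to 13.4, 466 and 655 CPM, most of it in replicates 2 and 3 from AC068888.1. That gene, opposite 733 bases of EIF4B exons, had 15, 671 and 795 counts. GPS2, whose exons overlap those of EIF5A by 241 bases, had 8, 310 and 520 counts while EIF5A had 5004, 768 and 1102. CCDC73, opposite EIF3M, had 4, 26 and 46 counts. Other partners went the other way, such as REV1, opposite 852 bases of EIF5B exons, with 62.8, 45.3 and 36.1 CPM. In CPM, AC068888.1 was at 2.999 in the deepest library and at 422 and 609.9 in the others. EEF1A1 and EEF1B2 have an opposite overlap too, with AL121972.1, which was not analysed here, and with NDUFS1, which was steady at 121, 121 and 119 CPM. EEF2, EIF3K and EIF6 have none. Nor do labels or headers state if the 3 libraries were prepared and counted alike, which bears on every comparison with replicate 1. The part of opposite-strand reads in the differences was not tested.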

How the data were processed

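The deposited table of raw counts holds whole read counts per gene for the 3 libraries, and a table of log2 CPM deposited by the authors was used as an alternative only. The authors used STAR and edgeR on build hg38, per the submitters' processing notes. Not given in the sources used here are versions, the counter, the annotation release and any strand setting. IDs were matched without version to GENCODE release 29, which left 140 without a match.

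Counts were scaled with TMM factors (edgeR 4.0.16, R 4.3.3), and log2 values carry a pseudocount of 0.5 CPM, which understates differences of low genes. The chi-square test (scipy 1.17.1) was fitted on the whole table and tested on simulated Poisson counts in which some genes were changed. Those counts hold no other spread between libraries, so they do not show how the test acts on spread like that seen here. Merged exon lengths and overlaps came from pyranges 0.1.4, and copies (at least 95% identity over at least 200 bases) from BLAST 2.17.0. Figures used matplotlib 3.10.9 and Python 3.11.15.

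The members are named in full. Other pathway genes are the 3 highest and the lowest of each list per kb, and only some of the partners with overlapping exons are named. Members, lists and pairs were chosen with earlier results of these data known. Alternatives were DESeq2 1.42.0 size factors, column totals, other lengths, pseudocounts, filters and thresholds, thinning, GC bins, leaving out members by overlap, copy or level, and leaving out each library. The length of the principal transcript and the overlap on the same strand were added after seeing the data.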

Additional observations from a re-analysis of the deposited data

How the results depend on the processing

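No paired analysis was possible because the labels give 1 group, so no replicate number is shared between groups. The count of 46 factor genes that differed between libraries ranged from 30 to 41 when 1 library was left out, lowest without replicate 1, and from 41 to 46 under the other settings. The eIF2 median of 3.46 log2 units per kb became 3.90 with the deposited log2 values, 4.24 by longest and 4.69 by principal transcript lengths, and 4.19 without genes opposite another gene. The kinase median of 2.45 became 2.88, 2.91, 2.91 and 0.045 under the same 4 settings. The eIF3 median of 6.10 became 6.69 and 6.90 by the 2 other lengths, 5.58 as a mean and 5.35 without genes opposite another gene. The eIF4 median of 4.68 became 5.12 with the deposited values, 5.10 and 5.31 by the other lengths and 3.90 as a mean. The elongation factor median of 8.41 became 6.97 as a mean, 5.22 without genes opposite another gene and 5.00 without genes with a copy in the table. Left-out libraries gave 3.32 to 3.66 for eIF2, 2.25 to 2.69 for the kinases, 5.98 to 6.28 for eIF3, 4.46 to 4.89 for eIF4 and 7.90 to 8.97 for elongation factors.

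The eIF2 minus kinase difference of 1.01 became 1.77 by principal transcripts and 4.15 without genes opposite another gene (1 kinase left), with 0.71 to 1.26 when a library was left out. The eIF3 minus eIF2 difference of 2.64 became 1.86 as a mean and 1.16 without genes opposite another gene, with 2.39 to 2.96 over left-out libraries. The eIF4 minus eIF3 difference of -1.42 became -0.41 without genes opposite another gene, with -1.82 to -1.08 over left-out libraries. The elongation minus eIF3 difference of 2.31 became 1.39 as a mean, and it reversed to -0.13 without genes opposite another gene and to -1.10 without genes with a copy, with 1.92 to 2.69 over left-out libraries. The fewer genes that remain are part of these changes by construction, and other causes were not tested. The EIF4G1 to EIF4G2 ratio of -0.11 reversed to 0.076 by longest transcripts and ranged from -0.35 to 0.15 over left-out libraries, and EIF4E to EIF4EBP1, at -0.43, ranged from -1.34 to 0.69, the positive values of both coming without replicate 1. The remaining 117 comparisons of pair ratios kept their sign. Of 558 alternative values for single genes, 65 moved by more than the SD between libraries. Depth limits genes of few counts most, such as EIF2S3B, EEF1AKMT3 and EIF4EBP1 in replicates 2 and 3.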
